A study of Mus musculus with 8 samples.

Results

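The genes described here are 40 interferon-stimulated genes, taken by symbol from a list that was drawn up with earlier results of these data known. The list holds 8 interferon-inducible GTPases, 31 antiviral effectors and the chemokine Cxcl10. All 40 were measured among 19120 genes tested, of which 12597 have a symbol. Primary microglia of C57BL/6 mice were treated for 3 h with phosphate-buffered saline (PBS), with 20 µg/ml of Fc, the constant region of an antibody, or with 20 µg/ml of a fragment of the secreted peptide Ecrg4 fused to Fc. The fragments were residues 71 to 132, written Ecrg4(71-132), and residues 133 to 148, written Ecrg4(133-148). Fc is therefore the control that shares the carrier of both fragments, and PBS is the control without any added protein. The labels give no age of the animals. Total RNA was hybridised to 8 one-colour arrays, 2 for each treatment, and the labels divide the arrays into set 1 and set 2 with 1 array of each treatment in each set. They do not say whether the sets came from separate cultures, so a p-value measures the spread between these samples, which may be technical.

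Type I interferons bind a receptor on the cell surface, and the signal passes through Janus kinases to transcription factors that bind interferon-stimulated response elements (ISREs) in promoters. Interferon gamma acts mainly at other elements, the gamma-activated sites (GAS). Among the genes switched on this way, guanylate-binding proteins and immunity-related GTPases attack vacuoles that hold microbes, while IFIT proteins, oligoadenylate synthetases and viperin act against viral RNA and virus assembly. Microglia, the resident macrophages of the brain, express many of these genes in infection, ageing and degeneration.

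Values are log2 signals on a scale where 0 is the 75th percentile of an array, which was 494.6 to 809.3 signal units. A value of one probe cannot be set against that of another. An array had 24214 to 29439 probes well above background and 0 saturated spots, and precision is limited by having 8 arrays. Of the 40 genes, 38 were well above background on all 8 arrays; Oas3 was not on the Fc array of set 2, and Ifi44 was not on the Fc and both fragment arrays of set 2. The sets stood apart from each other. Of all tested genes, 59.3% passed limma's test at an adjusted p under 0.05 between set 1 and set 2, so each comparison of treatments is given within each set as well as over both. The microglial markers Csf1r, the receptor for a macrophage growth factor, and Cd68, a lysosomal protein, were bright on every array, at 7.90 to 8.17 and 7.44 to 8.07. Cx3cr1, the fractalkine receptor of microglia, was at 4.58 to 4.71 in set 1 and -3.25 to -0.74 in set 2, and Tmem119 was well above background on 5 arrays only.

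**Figure D1:**
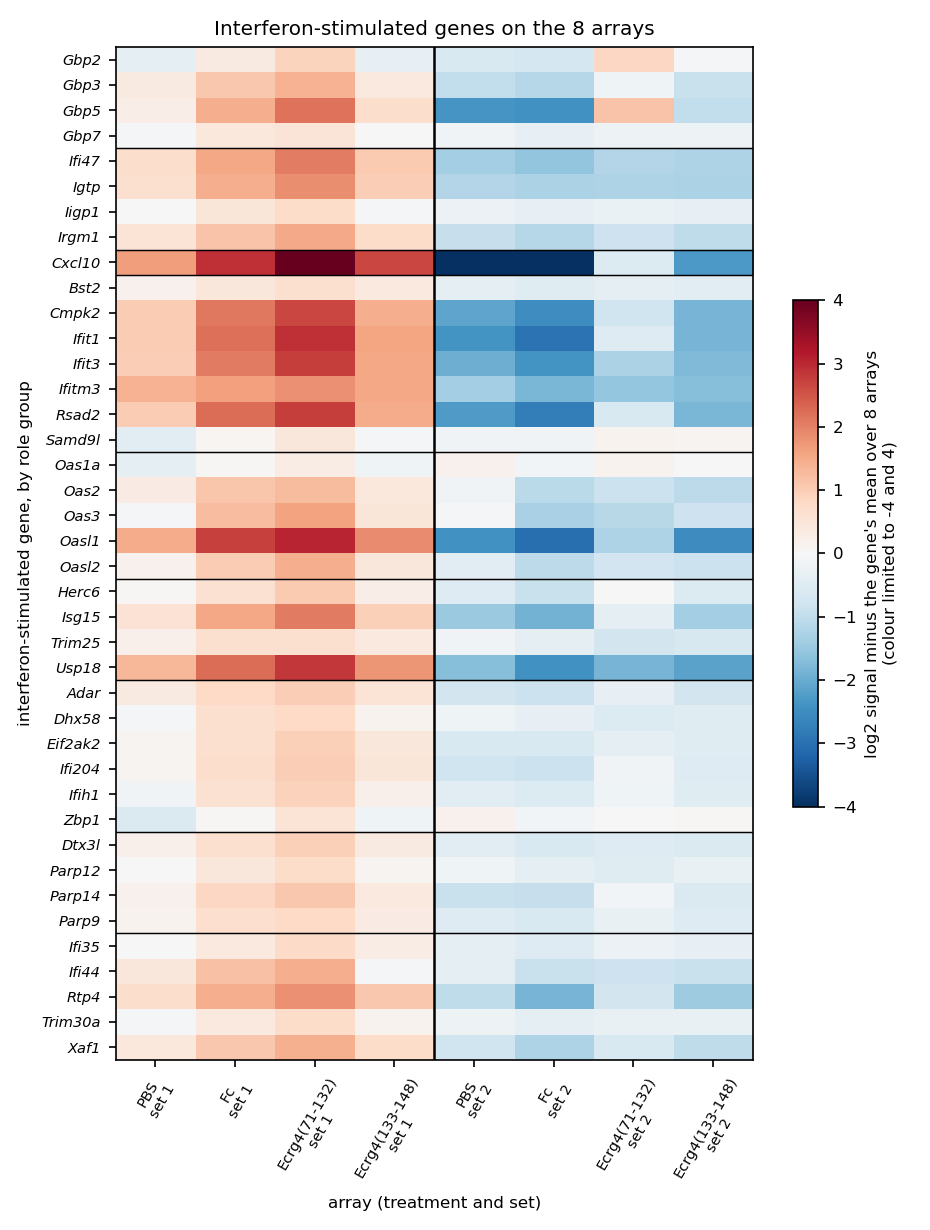
Each row is 1 of the 40 interferon-stimulated genes, grouped by role, and each column 1 of the 8 arrays; colour is the log2 signal minus that gene's mean over the 8 arrays. The columns of set 1 are mostly red and those of set 2 mostly blue, the Ecrg4(71-132) column is the reddest of set 1, and Gbp2 and Gbp5 stand out in the Ecrg4(71-132) column of set 2.

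Within set 1 the 40 genes kept nearly one order. In 38 of them the signal ran upward from PBS through Ecrg4(133-148) and Fc to Ecrg4(71-132), an order that 5.61% of all tested genes had, and in Ifi44 and Iigp1 PBS and Ecrg4(133-148) changed places. The count was 39 with scaling on array medians and 35 with quantile normalization, where Gbp2 and Gbp3 were among those that changed. Ecrg4(71-132) gave the highest signal of set 1 for all 40, against 26.5% of all genes, or for 39 with quantile normalization or normexp background correction, where Trim25 was the exception. Set 2 had another order. Fc was lowest for 36 genes there, against 16.5% of all genes, while the highest signal was that of Ecrg4(71-132) for 23 and of PBS for 17 (33.8% and 28.6% of all genes). Ifi44 is among the 17, but the filter kept it through PBS only, so its place is not independent of the filter.

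The promoters of these genes are shown because interferon acts through elements in promoters. The genes were listed as interferon-stimulated, so a higher share of such elements than among all genes is no result of these arrays. Whether the elements bear on the order shared in set 1 was not tested. RefSeq promoters of the build GRCm38.p6, 250 bases before to 50 bases after the gene's start, were available for 31 of the 40 genes. The ISRE core GAAANNGAAA, searched on both strands, lay in 18 of them (58.1%), against 3.99% of the 27025 genes with a promoter in the table. It was in 6 of 7 GTPase promoters and in 11 of 23 effector promoters. GAS, searched as TTCNNNGAA, which reads the same on both strands, lay in 9 of 31 (29.0%) against 9.55% of all, and 7 promoters held both, with 2 pairs of matches that overlapped. A match is a description of these letters, not a bound site, and no binding was measured. Stretches around the match are given for genes whose values follow, 5′ to 3′ along the gene's own strand, with every ISRE core or its reverse complement in capitals.
Gbp2, chr3:142620574-142620643, plus strand: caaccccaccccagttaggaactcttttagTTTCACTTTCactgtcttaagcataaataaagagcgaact
Gbp5, chr3:142496739-142496808, plus strand: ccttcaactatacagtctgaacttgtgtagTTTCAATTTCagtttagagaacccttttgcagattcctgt
Igtp, chr11:58199492-58199555, plus strand: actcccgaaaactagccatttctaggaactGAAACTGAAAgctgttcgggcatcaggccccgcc
Irgm1, chr11:48871421-48871474, minus strand: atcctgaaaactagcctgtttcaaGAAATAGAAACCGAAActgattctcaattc
Cxcl10, chr5:92349063-92349132, minus strand: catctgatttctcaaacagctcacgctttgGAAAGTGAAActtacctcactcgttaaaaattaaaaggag
Ifit1, chr19:34640774-34640843, plus strand: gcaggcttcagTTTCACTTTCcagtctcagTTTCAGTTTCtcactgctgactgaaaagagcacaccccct
Isg15, chr4:156200845-156200914, minus strand: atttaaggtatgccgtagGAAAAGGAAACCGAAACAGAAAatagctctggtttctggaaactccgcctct
Rsad2, chr12:26456533-26456602, minus strand: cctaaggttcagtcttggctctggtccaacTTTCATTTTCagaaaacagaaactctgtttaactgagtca
Isg15 has 3 cores and Irgm1 has 2 that overlap, Ifit1 has 2 that stand apart, and Gbp2, Gbp5, Igtp, Cxcl10 and Rsad2 have 1 in the 250 bases upstream.

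Ecrg4(71-132) gave higher signals than Fc in both sets for 37 of the 40 genes, among them all 8 GTPases, 28 of 31 effectors and Cxcl10. Of all tested genes, 28.5% were higher in both sets. The 3 exceptions, the ubiquitin ligase Trim25, the RNA helicase Dhx58 and Parp12, were higher in set 1 and lower in set 2. The count was 37 with array medians, 36 with quantile normalization, where Igtp changed, and 34 with normexp, where Oas3, Ifi44 and Iigp1 changed. The median difference over the 40 genes was 0.34, or 0.33 in set 1 and 0.31 in set 2, against -0.02 over all genes. No gene passed limma's test at an adjusted p under 0.05 in this comparison, members or others, and 644 genes had an unadjusted p under 0.05. Of the members, 1 (Gbp2) had such an unadjusted p, or 9 with the set as a block, where 3559 of all genes did and again none was called. The standard errors given below for treatments hold the difference between the sets, which is why they are large. Because each set has 1 array per treatment, leaving out an array sets unequal mixtures of sets side by side: the median was 1.39 without the Fc array of set 1 and 1.22 without the Ecrg4(71-132) array of set 2, but -0.50 without the Fc array of set 2 and -0.35 without the Ecrg4(71-132) array of set 1. With the set as a block it stayed between 0.12 and 0.60 over the 8 arrays left out in turn.

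Of the GTPases, Gbp2, Gbp3 and Gbp5 had the larger differences in set 2, while the fourth guanylate-binding gene, Gbp7, differed little. Gbp5, which promotes inflammasome assembly, was at 1.03 with PBS, 2.20 with Fc, 2.93 with Ecrg4(71-132) and 1.47 with Ecrg4(133-148) in set 1. In set 2 the same treatments gave -1.62, -1.66, 1.91 and -0.21. The Ecrg4(71-132) array of set 2 was thus far above its own controls, yet below the Fc array of set 1. Ecrg4(71-132) minus Fc was 0.72 in set 1 and 3.57 in set 2 for Gbp5 (mean 2.15, SE 1.55). Gbp2, a GTPase that coats vacuoles of pathogens, was at 2.32 and 2.11 with PBS, 3.07 and 1.995 with Fc, 3.61 and 3.54 with Ecrg4(71-132), and 2.38 and 2.61 with Ecrg4(133-148), set 1 first. Both Ecrg4(71-132) arrays lay above the other 6. Its difference from Fc was 1.04 (SE 0.36, 95% interval 0.13 to 1.95), with 0.54 in set 1 and 1.54 in set 2. Gbp3, a relative of Gbp2, was at 2.18, 2.88, 3.20 and 2.19 in set 1, with 0.82, 0.67, 1.63 and 0.92 for set 2, in the order PBS, Fc, Ecrg4(71-132), Ecrg4(133-148) that is kept below. In each set the Ecrg4(71-132) array was highest, and the difference from Fc was 0.33 and 0.96. Gbp7 was at 0.80, 1.26, 1.36 and 0.84 in set 1, with 0.69, 0.52, 0.65 and 0.65 for set 2, where PBS was highest. Its difference from Fc was 0.10 and 0.13. In the order of the RefSeq gene table Gbp5, Gbp7 and Gbp3 lie side by side with no gene between them, and 2 genes lie between Gbp3 and Gbp2.

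The immunity-related GTPases varied little among the treatments of set 2, where no member of the family ranged over more than 0.41. Igtp, also known as Irgm3, which guards host membranes from this family's attack, was at 3.81 with PBS, 4.61 with Fc, 5.02 with Ecrg4(71-132) and 4.15 with Ecrg4(133-148) in set 1. In set 2 its 4 values were 2.01, 1.90, 1.92 and 1.91. The arrays of set 1 were all above those of set 2, and Ecrg4(71-132) minus Fc was 0.41 in set 1 and 0.02 in set 2. Irgm1, a regulator of the same family, was at 4.03, 4.63, 4.99 and 4.23 in set 1, with 2.57, 2.35, 2.66 and 2.46 for set 2. Ifi47 was at 2.28, 3.11, 3.62 and 2.61, then at 0.20, -0.01, 0.40 and 0.34. Both genes were highest with Ecrg4(71-132) in each set, and every array of set 1 was above every array of set 2. Iigp1, which coats parasite vacuoles, was at -0.90, -0.39, -0.15 and -0.96 in set 1, with -1.14, -1.23, -1.15 and -1.21 for set 2. The difference from Fc was 0.37 and 0.31 for Irgm1, 0.50 and 0.41 for Ifi47, and 0.24 and 0.08 for Iigp1. The 4 guanylate-binding genes had medians of 0.43 (set 1) and 1.25 (set 2), and the 4 immunity-related GTPases 0.39 and 0.19. This difference between the families was not tested, since the genes share the same arrays.

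Set against the GTPases as a whole, the effectors had medians of about the same size. The median Ecrg4(71-132) minus Fc was 0.40 for the 8 GTPases and 0.33 for the 31 effectors, with 0.39 and 0.31 in set 1 and 0.36 and 0.29 in set 2. Among effectors the larger differences were those of Ifit1, Rsad2, Cmpk2, Oasl1 and Isg15. Ifit1, which binds viral RNA that lacks the host's cap marks, was at 1.90, 3.09, 3.81 and 2.47 with PBS, Fc, Ecrg4(71-132) and Ecrg4(133-148) in set 1. In set 2 it was at -1.50, -2.05, 0.39 and -0.96, so that every array of set 2 lay below every array of set 1. Its difference between Ecrg4(71-132) and Fc was 0.73 in set 1 and 2.44 in set 2. Rsad2, which encodes viperin, and Cmpk2, a nucleotide kinase that is the next gene to it, had similar differences. Rsad2 was at 3.20, 4.42, 4.94 and 3.68 in set 1, with -0.08, -0.59, 1.59 and 0.34 for set 2. It differed by 0.52 and 2.18, and Cmpk2 by 0.57 and 1.69. Isg15, a ubiquitin-like protein joined to other proteins, was at 5.52, 6.51, 7.02 and 5.91, then at 3.48, 3.07, 4.56 and 3.60. Its sets did not overlap, and the Fc array was the lowest of set 2. Usp18, the protease that removes Isg15, was at 3.21, 4.13, 4.73 and 3.66 in set 1, with 0.18, -0.53, 0.04 and -0.26 for set 2. Unlike Isg15, it was highest with PBS in set 2, and Ecrg4(71-132) minus Fc was 0.61 and 0.57.

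Among genes of the oligoadenylate synthetase family, some of which start RNA decay on sensing double-stranded RNA, the differences were mostly smaller. All 5 were higher with Ecrg4(71-132) than with Fc in both sets, by a median of 0.31 and 0.25, but Oas3 was not with normexp. Oasl1, a member of that family that restrains Irf7 translation, was at 2.73, 3.99, 4.29 and 3.14 in set 1, with -1.18, -1.78, 0.01 and -1.26 for set 2. Its difference was 0.31 and 1.79, and that of Oas2 was 0.17 and 0.21. Oas3 was at -2.52, -1.23, -0.85 and -1.98, then at -2.51, -3.77, -3.56 and -3.28, so its PBS arrays were level while the others were apart. Oas1a and Samd9l, a restriction factor, were the 2 effectors whose Ecrg4(71-132) and Fc arrays did not overlap. Together with Gbp2 they made 3 of 40 genes, against 10.6% of all genes. Oas1a was at 6.07 and 5.91 with Fc and at 6.33 and 6.16 with Ecrg4(71-132). The DNA sensor Ifi204 was at 5.69, 6.31, 6.58 and 6.09 in set 1, with 4.80, 4.73, 5.46 and 5.07 for set 2. Adar, an RNA editing enzyme, was at 3.61, 4.05, 4.26 and 3.81, then at 2.52, 2.39, 2.92 and 2.51. Both were highest with Ecrg4(71-132) in each set.

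The other effectors that were followed array by array had the same top array in set 1. Parp14, an ADP-ribosyltransferase, was at 4.79, 5.43, 5.69 and 5.01 in set 1, with 3.71, 3.70, 4.49 and 4.03 for set 2. Dtx3l, a ubiquitin ligase that works with Parp9, was at 2.74, 3.18, 3.48 and 2.90, then at 2.06, 1.93, 2.02 and 1.95. Parp14 was highest with Ecrg4(71-132) in set 2 and Dtx3l with PBS, though only 2 genes lie between them. Rtp4, a chaperone of receptors, was at 4.82, 5.56, 5.96 and 5.20 in set 1, with 3.09, 2.26, 3.37 and 2.70 for set 2. Xaf1, which promotes cell death, was at 3.01, 3.67, 4.001 and 3.31, then at 1.81, 1.35, 1.98 and 1.59. Ecrg4(71-132) was highest for both in each set, and none of the 4 genes had an array of set 2 above one of set 1.

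Cxcl10, which draws T cells to sites of inflammation, had the largest difference of the 40 genes. In set 1 it was at 5.35 with PBS, 6.60 with Fc, 7.79 with Ecrg4(71-132) and 6.33 with Ecrg4(133-148). In set 2 it was at -0.48, -0.75, 3.13 and 1.38. Each fragment of set 2 was above both controls of that set, and all 4 arrays of set 2 lay below those of set 1. Ecrg4(71-132) minus Fc was 1.19 in set 1 and 3.88 in set 2 (mean 2.53, SE 3.53). It was the 1 gene of the 40 with a difference over 1 in both sets, against 0.465% of all genes. In set 2 alone 10 of the 40 genes differed by over 1, against 4.21% of all genes.

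**Figure D2:**
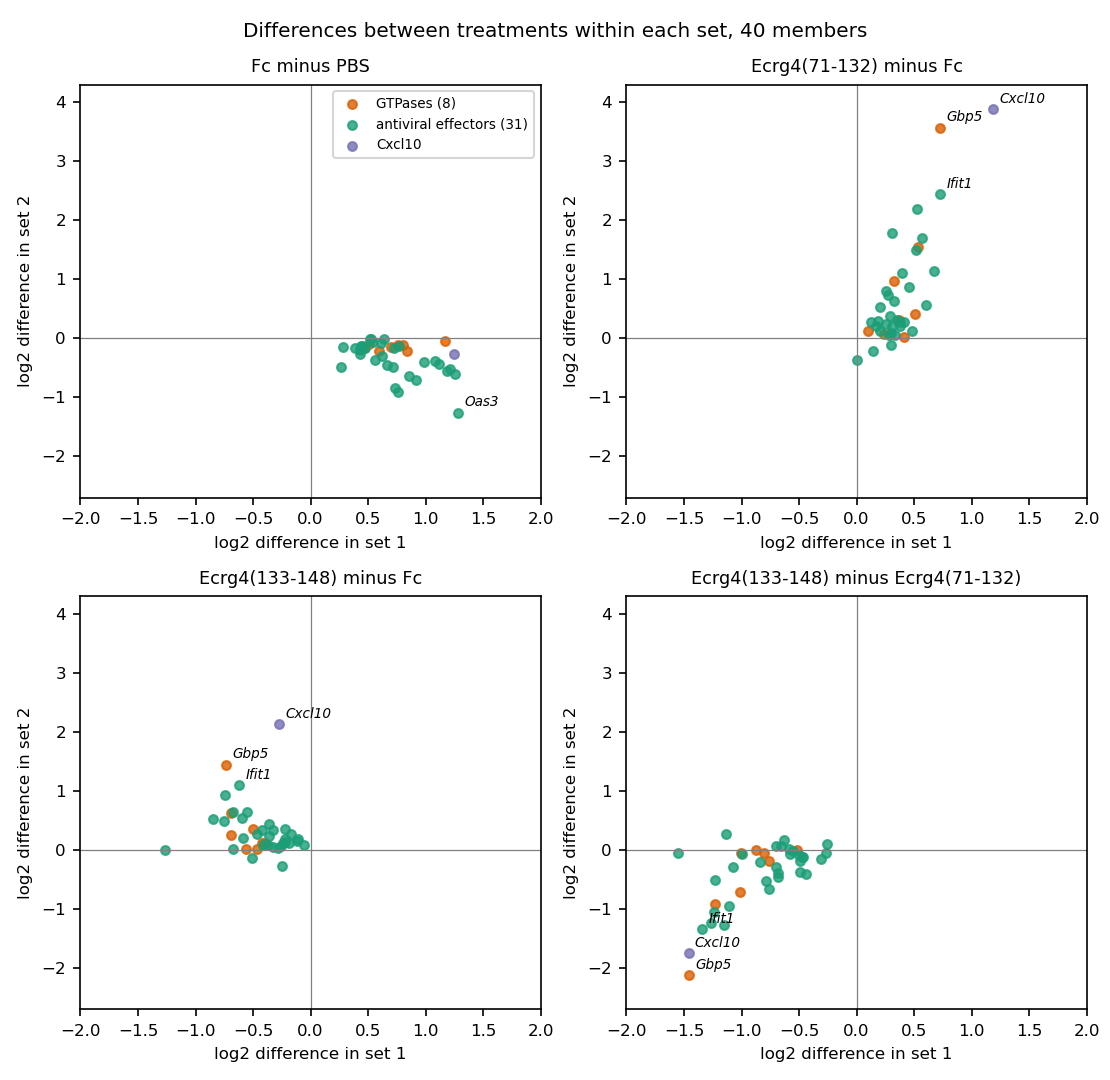
Each point is 1 of the 40 genes, with its log2 difference between 2 arrays of set 1 on the horizontal axis and of set 2 on the vertical axis; colours mark GTPases, effectors and Cxcl10. Points of Ecrg4(71-132) minus Fc lie mostly at the upper right, those of Fc minus PBS at the lower right, and those of Ecrg4(133-148) minus Fc mostly at the upper left.

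Ecrg4(133-148), a shorter fragment with other residues of the same peptide at the same dose and time, was above Fc in both sets for 0 of the 40 genes. Of all tested genes, 28.5% were higher in both sets and 30.6% lower in both, and 0.0523% and 0.0262% were so by over 1, as 0 members were. The members were lower than Fc in set 1 and higher in set 2 for 37 genes, a pattern of 16.4% of all genes, and lower in both for Trim25, Dhx58 and Ifi44. For Ifi44 the values of set 2, -4.25 with Ecrg4(133-148) and -4.24 with Fc, were not well above background and have no order. Its direction changed with array medians and with quantile normalization. The median difference was -0.06, with -0.42 in set 1 and 0.19 in set 2. No gene was called by limma (88 of all genes and 0 of the members had an unadjusted p under 0.05, or 1006 and 0 when blocked by set). The larger positive differences of set 2 were in genes named above: Cxcl10 differed by 2.13, Gbp5 by 1.44 and Ifit1 by 1.09, while in set 1 the same genes differed by -0.27, -0.73 and -0.62. For GTPases the median was -0.14 and for effectors -0.05. These comparisons share the Fc arrays with those of Ecrg4(71-132).

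Set directly against each other, the fragments differed in one direction for most members. Ecrg4(133-148) gave lower signals than Ecrg4(71-132) in both sets for 34 of the 40 genes, against 23.7% of all genes, and for 27 with array medians and 29 with quantile normalization. For the GTPases the count was 8 of 8, but 4 of 8 with array medians and 6 of 8 with quantile normalization, and Igtp and Gbp7 differed by only -0.01 in set 2. The exceptions were Oas3, Trim25, Dhx58, Zbp1, Parp12 and Trim30a, all effectors, which were lower in set 1 and higher in set 2. The median difference was -0.49, with -0.76 in set 1 and -0.20 in set 2, against 0.01 over all genes. A difference beyond 1 in both sets was found in 6 of 40 genes, against 0.413% of all: Ifit1, Rsad2, Cmpk2, Oasl1, Gbp5 and Cxcl10. Ifit1 differed by -1.34 in each set, and Rsad2 by -1.26 and -1.25. Gbp2, Gbp5, Samd9l and Oas1a had no overlap between the fragments' arrays, 4 of 40 against 6.49% of all genes. The difference of Gbp2 was -1.08 (SE 0.36, 95% interval -1.98 to -0.17). None of these was called by limma, where 141 of all genes and 1 member had an unadjusted p under 0.05 (1210 and 8 when blocked by set). The interval for Ifit1 ran from -7.37 to 4.68 in the fit without the set as a block. It holds the difference between the sets, so for such genes that fit neither separates the fragments nor shows that they act alike. With the set as a block 0 genes were called. The median was -1.37 without the Ecrg4(71-132) array of set 2 and -1.08 without the Ecrg4(133-148) array of set 1, but 0.37 without the Ecrg4(71-132) array of set 1 and 0.14 without the Ecrg4(133-148) array of set 2. It lay between -0.72 and -0.24 when blocked by set.

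The carrier alone differed from PBS in opposite directions in the sets. For all 40 genes the Fc array exceeded PBS in set 1, and in set 2 it was the lower of that pair, a pattern of 30.4% of all tested genes. Higher in both sets were 39.6% of all genes (0.0418% by over 1) and 0 members. The count was 36 with array medians, where Samd9l, Eif2ak2, Parp14 and Gbp5 turned, and 40 with quantile normalization. The median of Fc minus PBS was 0.68 in set 1 and -0.20 in set 2. Oas3 differed by 1.28 and -1.26, with its probe not well above background on the Fc array of set 2. Without that array the median over members was 1.103, and without the Fc array of set 1 it was -0.75. Cxcl10 differed by 1.25 and -0.27, Ifit1 by 1.18 and -0.55, and Gbp5 by 1.17 and -0.04. For GTPases the medians were 0.73 and -0.13, for effectors 0.63 and -0.31. None was called by limma, where 51 of all genes and 0 members had an unadjusted p under 0.05 (355 and 0 when blocked by set).

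Against PBS, Ecrg4(71-132) was higher in both sets for 23 of the 40 genes, against 34.3% of all genes. The count was 28 with array medians, a scaling that moved the median of all genes in this comparison from 0.01 to 0.16, and 24 with quantile normalization. The other 17 were higher in set 1 and lower in set 2. The members differed by 0.99 in median within set 1 and 0.19 within set 2. The group that was higher in both sets held 5 of 8 GTPases (Gbp2, Gbp3, Gbp5, Irgm1 and Ifi47), 17 of 31 effectors and Cxcl10. Usp18, Bst2, Ifitm3 and the oligoadenylate synthetases other than Oasl1 were among the remainder. For Ecrg4(133-148) the count was 16, against 36.3% of all genes, and the medians were 0.27 and -0.06. No gene was called against PBS. At an unadjusted p under 0.05 limma had 933 genes and 2 members for Ecrg4(71-132), and 186 and 0 for Ecrg4(133-148), or 4531 and 17, and 1749 and 0, when blocked by set.

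Over the 40 genes the median difference between the sets was larger than that between any pair of treatments. In a fit with treatment and set as terms, 35 of the 40 genes were higher in set 1 at an adjusted p under 0.05 by limma, and none was lower, while 22.8% of all genes were called higher and 36.4% lower. The 4 arrays of a set carry 4 treatments, and no set was repeated. Wherever the sets are compared, p-values and SEs therefore measure how evenly the difference held over treatments. They do not measure the spread between repeated sets. The count of members called was 29 to 35 when any 1 array was left out. In 35 genes set 1 was above set 2 in all 4 treatments (27% of all genes). In 34 the lowest array of set 1 was above the highest of set 2 (21.3% of all genes), and in 17 the difference was over 1 in every treatment (4.64%). The median difference was 1.43, with 0.79 under PBS, 1.90 under Fc, 1.42 under Ecrg4(71-132) and 1.15 under Ecrg4(133-148), while that of all genes was -0.11. The PBS arrays thus had the smallest median and the Fc arrays the largest.

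Cxcl10 led with 5.70 (SE 0.49, adjusted p by limma 0.00099), higher in 4 of 4 treatments. Oasl1 differed by 4.59 (SE 0.33), Usp18 by 4.08 (SE 0.32), Ifit1 by 3.85 (SE 0.35) and Rsad2 by 3.74 (SE 0.34). Ifitm3, a membrane protein that blocks virus entry, ran from 4.73 to 5.18 in set 1 and from 1.50 to 1.99 in set 2, with no overlap. Its difference was 3.21 (SE 0.14, adjusted p by limma 0.000196). Isg15 differed by 2.57 (SE 0.25) and Rtp4 by 2.53 (SE 0.26). Smaller differences were those of Adar, 1.35 (SE 0.10), Parp14, 1.25 (SE 0.14), Ifi204, 1.15 (SE 0.13), and Dtx3l, 1.08 (SE 0.14).

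Among the GTPases 6 of 8 were called, with a median of 1.78, and among the effectors 28 of 31, with a median of 1.25. Under Ecrg4(71-132) alone the order of these medians was the other way round, 1.29 for GTPases and 1.37 for effectors. The immunity-related GTPases differed by 2.67 (Ifi47, SE 0.24), 2.46 (Igtp, SE 0.23), 1.96 (Irgm1, SE 0.17) and 0.58 (Iigp1, SE 0.16). Of the guanylate-binding proteins, Gbp5 differed by 2.30 (SE 0.50) and Gbp3 by 1.60 (SE 0.18). For Gbp5 the gap was 1.02 under Ecrg4(71-132), 2.65 under PBS and 3.86 under Fc, a variation between treatments that was not tested. The 5 genes not called were Gbp2 (0.28, SE 0.23), Gbp7 (0.44, SE 0.14, adjusted p by limma 0.0501), Samd9l (0.00, SE 0.13), Oas1a (-0.10, SE 0.14) and Zbp1 (-0.06, SE 0.23). Oas2 and Oas3 are next to each other in the gene table, with 6 genes between Oas3 and Oas1a, and Oas2 differed by 1.57 (SE 0.32) and Oas3 by 1.63 (SE 0.51). The 18 genes with an ISRE core in the promoter window, as in the stretches printed above, had a median difference of 1.80, and the 13 without one a median of 1.35. The ranges overlapped widely, from -0.10 to 5.70 and from 0.00 to 4.59.

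**Figure D3:**
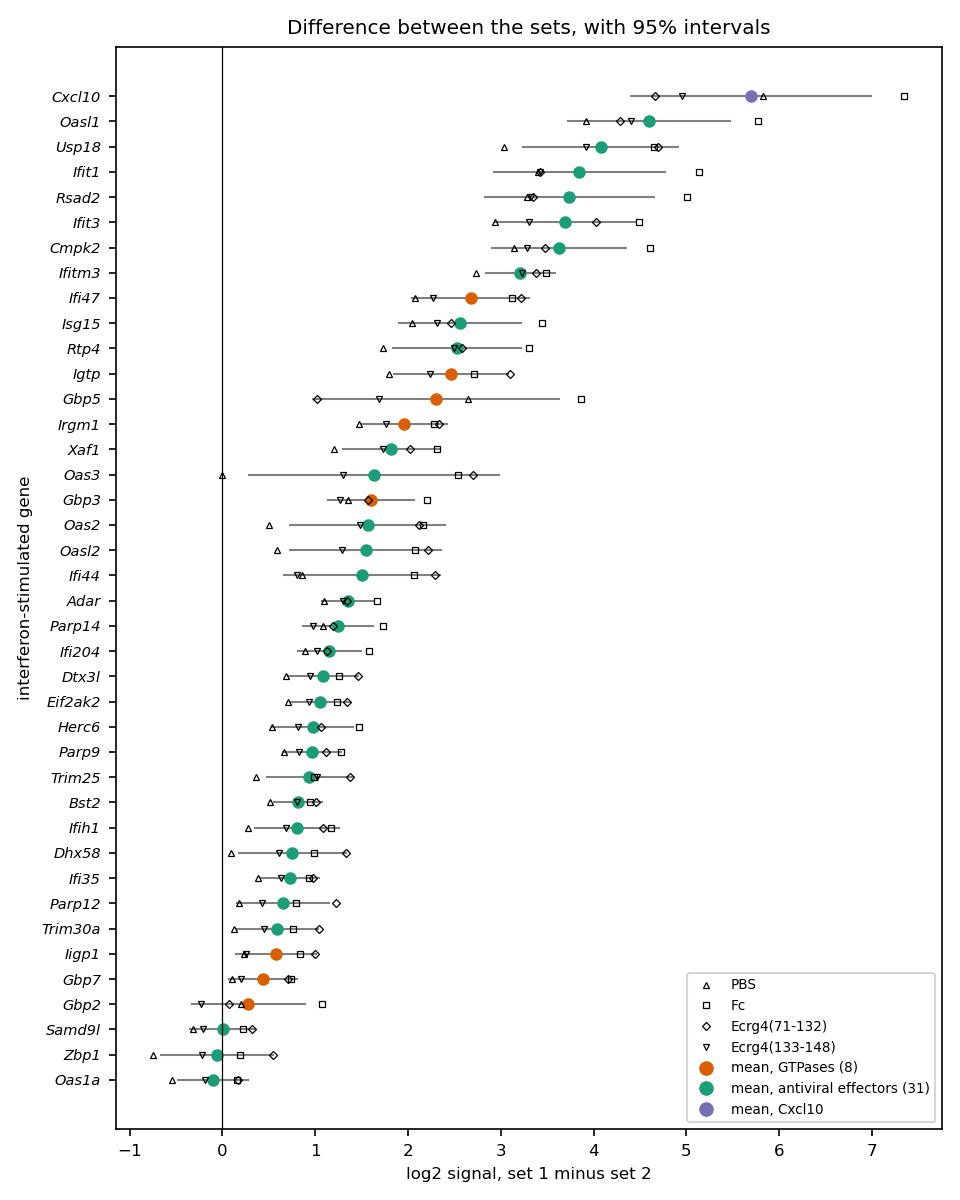
The horizontal axis is the log2 signal of set 1 minus set 2 for each of the 40 genes, with the filled point the mean over 4 treatments, the line its 95% interval and the open symbols the difference within each treatment. Cxcl10 is highest at 5.70, Fc is often the widest pair, and Gbp2, Samd9l, Zbp1 and Oas1a lie around 0.

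Markers of other cells moved with the sets. Of 4 fibroblast markers measured of 5 listed, 4 were higher in set 1 by limma's adjusted p, but Col1a1, Dcn and Pdgfra were not well above background on 2 or 3 arrays of set 2, so the sizes of their differences are not given. Their summed level was 4.45 to 5.56 in set 1 and -1.41 to -0.85 in set 2. Col1a2, a collagen chain, was at 3.53 to 4.63 in set 1 and -2.33 to -1.70 in set 2. Of 6 astrocyte markers measured of 7 listed, 5 were higher and 1 (Aldh1l1) lower, and all of them but Aldh1l1 were not well above background on 2 or 3 arrays of set 2. Their summed level, 3.35 to 4.23 in set 1 and 3.64 to 3.85 in set 2, is mostly the signal of Aldh1l1 in set 2 (3.59 to 3.83) and does not show the difference of the other 5. Gfap, the intermediate filament of astrocytes, was well above background on all 4 arrays of set 1 and on 1 of set 2. Of the 10 microglial markers 6 were higher and 3 lower. Of all tested genes, 22.8% were called higher and 36.4% lower. The summed level of the microglial markers was 9.54 to 9.66 in set 1 and 9.51 to 9.72 in set 2. It is mostly the signal of Csf1r, Cd68 and Trem2 and does not show the differences of single markers. Fcrls was at 3.57 to 3.68 in set 1 and -0.56 to -0.29 in set 2. Itgam went the other way, from 4.04 to 4.14 in set 1 and from 4.55 to 4.89 in set 2. In bulk samples fewer cells of a type and less RNA per cell cannot be told apart. The part of other cells in the higher interferon-stimulated genes of set 1 was not tested. Within set 1, with 1 array per treatment, the PBS array had the highest median of the fibroblast and astrocyte markers. It also had the lowest median of the interferon-stimulated genes, and a relation between these was not tested. In set 2 the astrocyte markers, centred on each gene's mean, were higher with the fragments (-1.26 and -1.72) than with PBS and Fc (-2.88 and -2.68), values that include those dim probes. The filter kept Gfap, Aqp4, Slc1a3 and S100b through fragment arrays only, so the higher signal with the fragments is not independent of the filter.

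**Figure D4:**
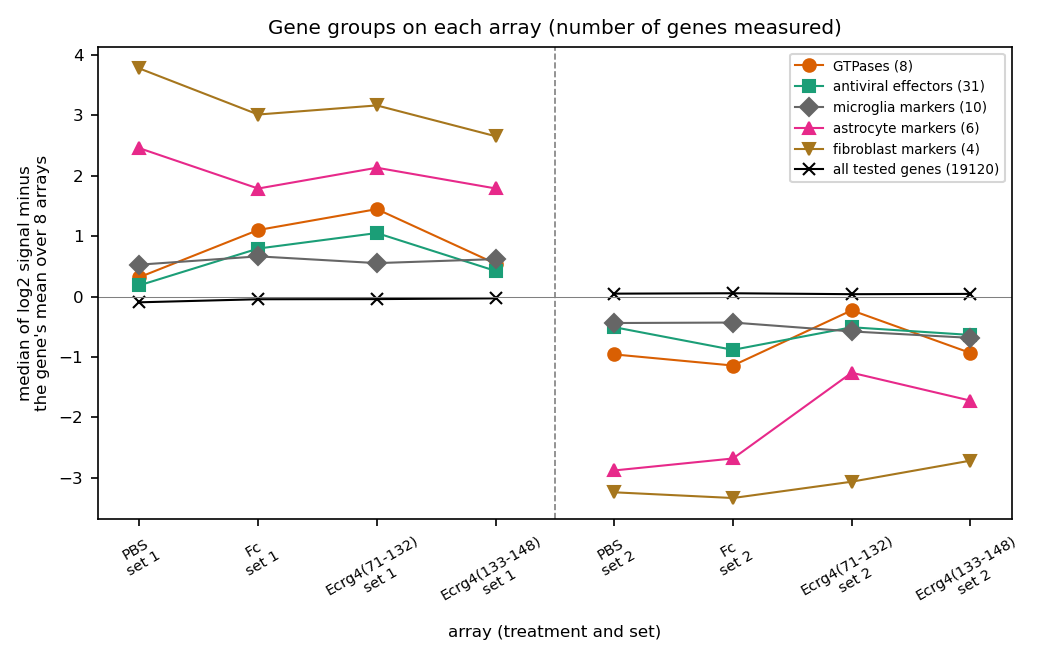
The vertical axis is the median, over the genes of a group, of log2 signal minus the gene's mean over 8 arrays, and the arrays stand on the horizontal axis with set 1 on the left. GTPases and effectors peak at Ecrg4(71-132) in set 1, while astrocyte and fibroblast markers there are highest with PBS; all tested genes stay near 0.

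Genes of the interferon pathway upstream of the members were taken from a list of 28, of which 26 were measured; Ifna4 and Ifng were not kept by the filter. Between the sets 12 were higher in set 1 and 6 lower by limma's adjusted p, against 22.8% and 36.4% of all tested genes. Ifnb1, the gene of interferon beta, was at -3.64 with PBS, -2.73 with Fc, -0.29 with Ecrg4(71-132) and -1.64 with Ecrg4(133-148) in set 1. In set 2 it was at -6.09, -5.65, -3.17 and -4.75, where the probe was well above background with Ecrg4(71-132) only, so the other 3 values of set 2 have no order. In set 1, where all 4 arrays were well above background, Ecrg4(71-132) was highest and its difference from Fc was 2.44. The filter kept this probe through Ecrg4(71-132) only, so the higher signal with that fragment is not independent of the filter. The gene is among the 12 called higher in set 1, but the size of that difference rests on the dim arrays and is not given. Irf7, a transcription factor that amplifies interferon production, was higher in set 1 by 2.63 (SE 0.32), Irf9 by 0.96 (SE 0.11) and Stat2 by 1.16 (SE 0.18). The receptor gene Ifnar1 was higher by 0.75 (SE 0.18), whereas the kinases Jak1 and Tyk2 were lower, by -0.55 (SE 0.04) and -0.53 (SE 0.07). The feedback inhibitor Socs1 was higher by 2.10 (SE 0.19), while Socs3 was not called (-0.37, SE 0.35).

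For Ecrg4(71-132) minus Fc, 14 of the 26 pathway genes were higher in both sets and 5 lower, none of them called. Of all tested genes, 28.5% were higher in both sets and 36.4% lower. The 14 include Ifnb1, with its dim Fc array of set 2, which the filter kept through Ecrg4(71-132) only. Socs3, another feedback inhibitor, differed by 1.03 and 2.40. Jak2 differed by 0.42 and 1.97 and Socs1 by 0.67 and 1.68. Ecrg4(133-148) minus Ecrg4(71-132) was -1.097 and -1.013 for Socs3, and -1.35 in set 1 for Ifnb1, and neither was called.

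Different probes of a gene did not always give the same size. The probe used, the brightest, gave Adar a difference between the sets of 1.35 and another probe 0.20. For Zbp1 they gave -0.06 and 0.57, and for Iigp1 0.58 and 1.67. For Herc6, Ecrg4(71-132) minus Fc was 0.66 with one probe and 0.14 with the other. Members of the Gbp, Ifi and Oas families have close relatives, so the signal of a probe may hold some of a relative's RNA, which was not tested.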

How the data were processed

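One-colour Agilent arrays of microglial RNA were read. The scanner files deposited for each array hold an intensity per spot, background-subtracted and detrended per the file headers; the submitters' processing notes name Agilent Feature Extraction 11.0.1.1. The deposited value table holds log2 intensities of the same arrays; each column correlated with log2 of its array's scanner signal, and it served as an alternative. Here log2 of the processed signal was set to 0 at each array's 75th percentile. Of 55681 probes, 28026 were named through RefSeq accessions and 27655 as in the file. Outlying spots were dropped, and 104 of these probes were left out for that reason. A probe stayed in (25250 did) if both arrays of some treatment had it well above background, and a gene took its brightest probe. Limma 3.58.1 in R 4.3.3 fitted the 4 treatment means on 8 arrays (4 residual degrees of freedom), and treatment plus set for the difference between sets (3), with Benjamini-Hochberg adjustment over 19120 genes and a threshold of 0.05. Same-set arrays deviated together (correlation of deviations from group means 0.78 to 0.86 over pairs of treatments), so the sets pair the arrays. Scripts were tested on simulated data. Members and gene lists were chosen with earlier results of these data known. Genes named with values are all GTPases, Cxcl10 and, of each other role group, the 2 members with the largest range over the arrays, with values on every array; others were named after their values were seen. Alternatives were array-median and quantile scaling, normexp background correction, the deposited table, other probe filters, the mean of probes, an intensity trend, a threshold of 0.1, the set as a block and leaving out each array.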

Additional observations from a re-analysis of the deposited data

How the results depend on the processing

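With scaling on array medians the median of Ecrg4(71-132) minus Fc was 0.40 over the 40 members, 0.46 over GTPases and 0.39 over effectors, and that of Ecrg4(133-148) minus PBS was 0.21 over GTPases. This scaling moved the median of all genes to 0.12 for Fc minus PBS, 0.16 for Ecrg4(71-132) minus PBS and 0.15 for Ecrg4(133-148) minus PBS. With quantile normalization the medians of Ecrg4(71-132) minus Fc were 0.31, 0.37 and 0.30, and with the mean of the kept probes the effectors had 0.31. Without a filter on dim probes 18666 genes were called between the sets, against 11333 with it. Direction counts under other settings were added after the data were seen. The set as a block changed no call for members.

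Leaving out 1 array at a time, without a block, compares means over different sets. The median over members then ran from -0.50 to 1.39 for Ecrg4(71-132) minus Fc, -1.06 to 0.80 for Ecrg4(133-148) minus Fc, -1.37 to 0.37 for Ecrg4(133-148) minus Ecrg4(71-132), -0.75 to 1.103 for Fc minus PBS, -0.16 to 1.41 for Ecrg4(71-132) minus PBS and -0.57 to 0.62 for Ecrg4(133-148) minus PBS. In the same order the GTPase median ran from -0.36 to 1.58, -1.30 to 0.94, -1.65 to 0.080, -0.89 to 1.35, -0.11 to 1.70 and -0.51 to 0.81. The effector median ran from -0.53 to 1.27, -0.89 to 0.75, -1.17 to 0.37, -0.64 to 1.01, -0.26 to 1.29 and -0.55 to 0.53. For the difference between sets the 3 medians stayed at 1.27 to 1.56, 1.59 to 1.91 and 1.08 to 1.34, with 29 to 35 members and 8913 to 11047 genes called. A lone array of a treatment is assumed to vary like the others.

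With the set as a block and 1 array left out, the 3 medians of Ecrg4(71-132) minus Fc (members, GTPases, effectors) were 0.59, 0.65 and 0.58 without Fc of set 1, 0.12, 0.093 and 0.12 without Ecrg4(71-132) of set 1, 0.14, 0.14 and 0.14 without Fc of set 2, and 0.60, 0.63 and 0.54 without Ecrg4(71-132) of set 2. Those of Ecrg4(133-148) minus PBS were -0.21, -0.19 and -0.25 without PBS of set 1, and 0.42, 0.36 and 0.45 without PBS of set 2. Its GTPase median was 0.27 without Ecrg4(133-148) of set 1 and -0.069 without that of set 2. In these blocked fits 1 gene was called for Ecrg4(71-132) minus Fc without Fc of set 1, and 482 without Ecrg4(71-132) of set 1, where 1078 were called against PBS. None was a member. Other treatment comparisons had 0 genes called.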
